A study of Mus musculus with 4 samples.

Results

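The genes described here are 38 genes of skeletal muscle, for the sarcomere and for the calcium and energy supply of contraction, measured in whole mouse liver. They were found by gene name among the 37021 gene names of the array, where 75 of the 56495 probes carry their names, and each gene is represented by its brightest probe, with its other probes as a check. The list was assembled with the ratios of these same arrays known, so the levels and ratios below are a description and were not tested.

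The 4 groups of C57BL/6 wild-type mice, 6 weeks old, were injected intraperitoneally on 5 days a week for 3 weeks. Aristolochic acid I (AAI), a nephrotoxic compound of Aristolochia plants, was given at 5 mg/kg/day to females and at 2 mg/kg/day to males, and corn oil was given to the control mice of each sex. Liver RNA of 5 mice was pooled for each array, and each group has 1 array, so no difference has a replicate check, no p-value can be given, and the spread between mice is unknown. Sex and dose cannot be told apart, since each sex received its own dose. In such bulk RNA, fewer cells of a type and less RNA per cell cannot be told apart either. On the arrays 74.6% to 81.4% of probes were well above background, no spot was saturated, 70 to 234 spots were marked as outliers, none of them of the 38 genes, and 0 to 92 spots had been replaced by a background value. The AAI-treated female array was processed differently: 93.8% of its spots had a deposited value within 1% of the background-subtracted signal, against 6.66% to 13.3% on the other arrays, so that the trend correction across the array had hardly changed its values. Taking the background-subtracted signal on all arrays left 28 of the 38 genes at least 2-fold higher in females and 36 in males. The liver markers were high on all arrays, and none of the 12 was 2-fold higher with AAI in either sex.

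Skeletal muscle shortens when myosin thick filaments pull on actin thin filaments between the Z-discs of the sarcomere. Calcium leaves the sarcoplasmic reticulum through the ryanodine receptor, binds troponin C and frees actin for myosin, and is then pumped back by the sarcoplasmic reticulum calcium ATPase. Fast and slow fibres use different genes for many of these parts, among them the myosin heavy chains, the troponins, the myosin binding proteins and the calcium pumps. Hepatocytes have no sarcomeres, and the striated isoforms are not part of the known liver program.

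The sequences just upstream of several of these genes are shown as background. They are from the RefSeq reference (GRCm38.p6), which held promoter windows for 30 of the 38 genes; Actn3, Myot, Myoz1, Neb, Tcap, Tnni2, Tnnt3 and Trdn had none there. Capitals mark 4 motifs searched on both strands with overlapping matches allowed: the E-box CANNTG, bound by MyoD-type factors, the sequence TATAAA, the MEF2 motif and the CArG box.
Acta1, 250 bases upstream of the start, chr8:123894776-123895025, minus strand: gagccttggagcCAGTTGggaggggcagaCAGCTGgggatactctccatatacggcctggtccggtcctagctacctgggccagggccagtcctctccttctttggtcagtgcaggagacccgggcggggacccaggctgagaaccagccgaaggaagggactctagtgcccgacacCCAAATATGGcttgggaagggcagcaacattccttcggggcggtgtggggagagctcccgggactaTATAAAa
Myh1, 250 bases upstream of the start, chr11:67199852-67200101, plus strand: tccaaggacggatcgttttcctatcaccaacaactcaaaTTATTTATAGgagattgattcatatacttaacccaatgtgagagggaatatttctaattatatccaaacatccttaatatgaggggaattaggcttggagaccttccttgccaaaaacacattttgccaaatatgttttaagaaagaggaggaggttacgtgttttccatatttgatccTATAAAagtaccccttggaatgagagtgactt
Myh4, 250 bases upstream of the start, chr11:67237562-67237811, plus strand: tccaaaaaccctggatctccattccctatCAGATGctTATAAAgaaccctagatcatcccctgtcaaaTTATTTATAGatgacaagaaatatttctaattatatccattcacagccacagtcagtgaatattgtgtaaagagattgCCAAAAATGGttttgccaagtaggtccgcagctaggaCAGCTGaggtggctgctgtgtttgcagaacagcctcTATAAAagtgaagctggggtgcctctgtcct
Tnnc2, 250 bases upstream of the start, chr2:164779735-164779984, minus strand: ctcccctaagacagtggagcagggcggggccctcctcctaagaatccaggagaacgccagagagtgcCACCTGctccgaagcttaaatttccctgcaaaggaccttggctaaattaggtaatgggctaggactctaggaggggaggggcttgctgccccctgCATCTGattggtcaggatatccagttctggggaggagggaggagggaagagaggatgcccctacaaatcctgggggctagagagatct
Tnnc1, 250 bases upstream of the start, chr14:31208062-31208311, plus strand: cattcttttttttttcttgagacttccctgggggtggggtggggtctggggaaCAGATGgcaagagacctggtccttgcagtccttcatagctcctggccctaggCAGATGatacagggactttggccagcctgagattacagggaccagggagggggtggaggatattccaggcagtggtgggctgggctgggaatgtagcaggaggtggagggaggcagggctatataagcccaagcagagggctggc
Over the whole windows, which reach from 250 bases upstream to 50 bases downstream of the start, an E-box was present in 30 of the 36 windows of these genes and in 72.3% of all 32851 windows. The MEF2 motif was found in 6 of the 36 windows against 3.19% of all, in those of Myh1, Myh4, Myh8, Pvalb, Ttn and Xirp2. The CArG box was in 4 windows, of Acta1, Ldb3 and Myh4, against 1.63% of all, and TATAAA was in 7 windows against 13.6% of all. Among the fast isoforms 3 of 10 windows held the MEF2 motif, and among the slow isoforms 0 of 7. Overlapping windows of Tnni1 and of Myh7 were each counted, and the fast Actn3, Myoz1, Tnni2 and Tnnt3 had no window. A match says only that these letters are present in the window. Whether the motifs have a part in the ratios was not tested.

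The array reads each transcript with probes of 60 bases. Probes that have at least 1 reading frame without a stop codon are shown for genes whose probes carry the comparison, with their mm9 positions as the array design gives them. No letters are set in capitals here, since the whole probe is what binds.
Acta1, chr8:126416197-126416256, minus strand: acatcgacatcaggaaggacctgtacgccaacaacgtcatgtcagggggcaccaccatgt
Tnnt3, second probe, chr7:149698254-149698479, plus strand: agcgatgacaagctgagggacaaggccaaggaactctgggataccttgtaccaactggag
Tnnc1, chr14:32023360-32023776, plus strand: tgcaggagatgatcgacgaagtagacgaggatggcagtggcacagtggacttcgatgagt
Tnni1, second probe, chr1:137705328-137706203, plus strand: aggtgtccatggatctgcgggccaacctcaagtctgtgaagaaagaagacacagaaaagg
Ckm, chr7:20002222-20004829, plus strand: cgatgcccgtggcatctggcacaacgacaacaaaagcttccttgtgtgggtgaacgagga
Ryr1, RefSeq probe, chr7:29788789-29789487, minus strand: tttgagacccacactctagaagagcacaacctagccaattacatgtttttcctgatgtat
The positions of all but the Acta1 probe span more than the probe's own length, so these probes cross splice junctions and read spliced transcript. The brightest probes of fast and slow or otherwise related family members were dissimilar: the best ungapped alignment matched at most 24 of 60 bases, between Myh4 and Myh8. Probes of different genes differ in how they bind, so that differences between arrays are compared below. Levels of different genes are not set against each other, except where the genes are split by their corn oil level.

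With AAI, 27 of the 38 genes were at least 2-fold higher in females and 36 of the 38 in males, and none was 2-fold lower in either sex. Over all genes tested on the array, 1.37% were at least 2-fold higher in females and 3.51% in males, and 3.09% and 4.59% were at least 2-fold lower. Because the list was chosen on these ratios, nothing is read from the difference. The median log2 ratio of AAI over corn oil was 2.93 in females and 4.88 in males, against medians of 0.04 and 0.00 over all genes. At least 8-fold higher were 18 genes in females, where the array as a whole had 0.142%, and 32 in males, where it had 0.583%. In females 5 of the ratios are lower bounds, because Myh1, Myh8, Ckmt2, Myot and Trdn were not well above background with corn oil.

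Most genes shared 1 order of the 4 arrays. The level was highest in AAI-treated males for 37 of the 38 genes, all but Ryr1, and lowest in corn oil-treated females for 28. The full order from corn oil-treated females over corn oil-treated males and AAI-treated females to AAI-treated males was kept by 28 genes, and Tpm2, Tnnt1, Tnni1, Tnnc1 and Des were among those that departed from it. Across the 38 genes the ratios in females and males ran together, with r = 0.86 and rho = 0.92. The genes share the same 4 arrays and the same tissue and are not independent. They were also chosen with these ratios known, so nothing is read from the 2 values.

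**Figure D1:**
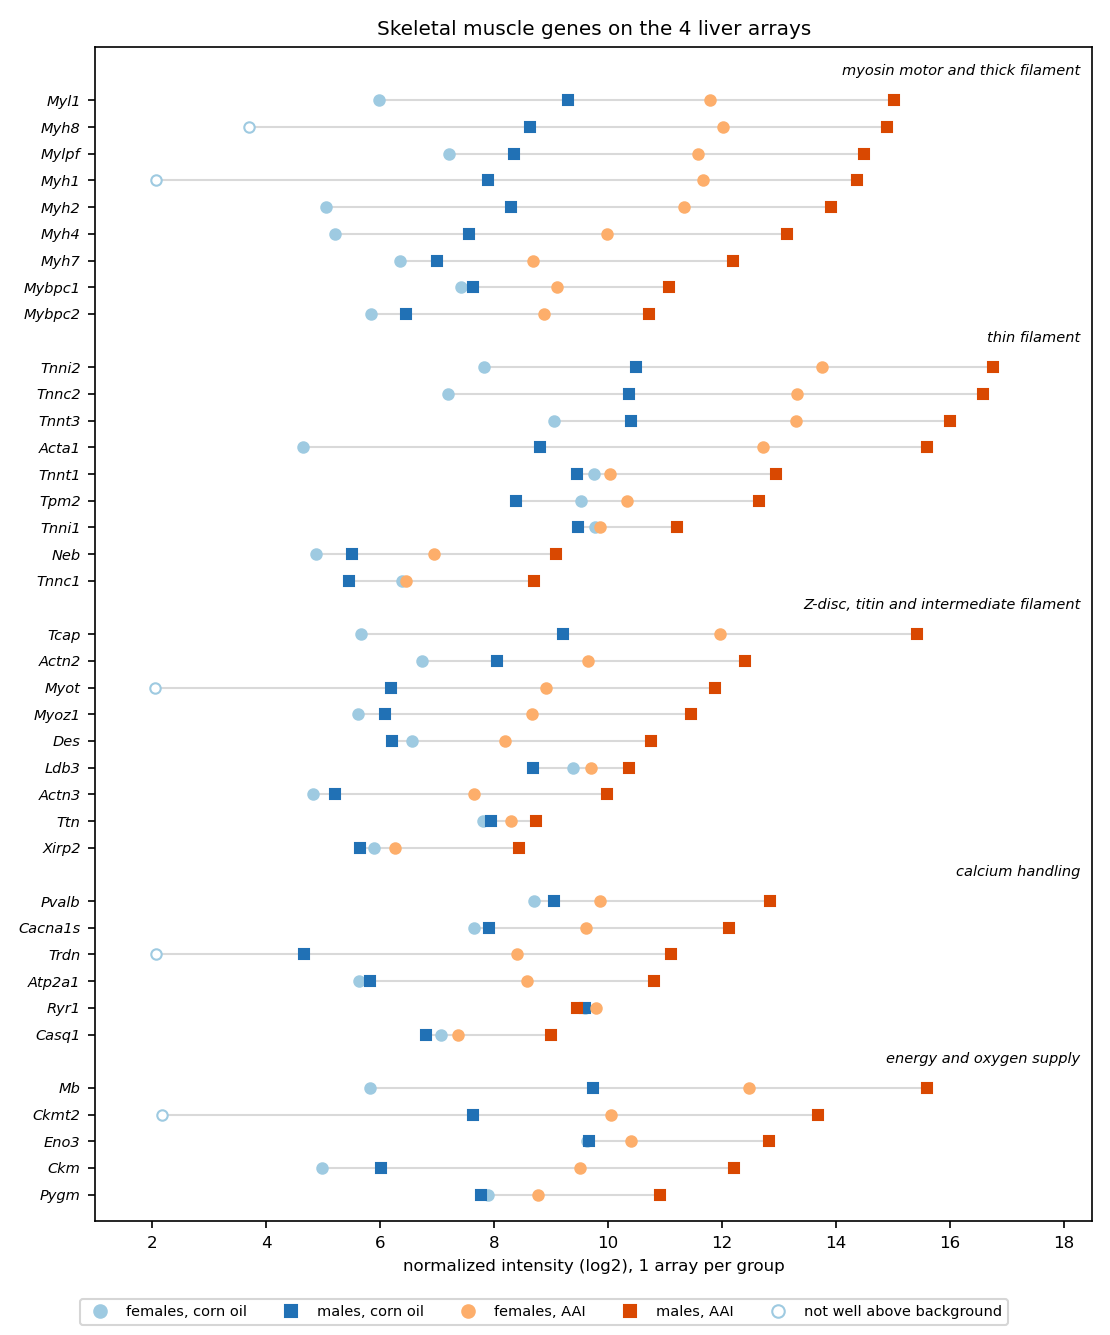
Normalized log2 intensity (horizontal axis) of each of the 38 genes (rows, grouped by role) on the 4 arrays, 1 point per array; open points were not well above background. AAI-treated males stand farthest to the right for every gene but Ryr1, and corn oil-treated females are farthest to the left for 28 genes.

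The myosin motor and its thick filament partners were the most complete group, with 9 of 9 genes at least 2-fold higher in both sexes and median log2 ratios of 4.76 in females and 5.61 in males. Myh1, the type IIx heavy chain, had log2 intensities of 2.07 in corn oil-treated females, 7.89 in corn oil-treated males, 11.68 in AAI-treated females and 14.38 in AAI-treated males. The first of these values was not well above background, so Myh1 was at least 161-fold higher in females and was 89.6-fold higher in males. Myh2, the IIa heavy chain, had 5.05, 8.30, 11.33 and 13.92 on the arrays in the same order, with log2 ratios of 6.28 and 5.61 in females and males. Every step between these arrays exceeded 2-fold for both genes. Myh4, the IIb heavy chain of the fastest fibres, had 5.21, 7.56, 9.98 and 13.14. Myh8, the perinatal heavy chain, had 3.71, 8.63, 12.02 and 14.90, the first not above background, which makes at least 205-fold in females and 77.5-fold in males. The slow heavy chain Myh7, also the main ventricular myosin of large mammals, had 6.35, 7.0, 8.69 and 12.20.

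The light chains and binding proteins followed. Myl1, the fast essential light chain, had log2 intensities of 5.98, 9.30, 11.79 and 15.02 in corn oil-treated females, corn oil-treated males, AAI-treated females and AAI-treated males, and Mylpf, the fast regulatory light chain, had 7.22, 8.36, 11.58 and 14.50. The log2 ratios were 5.81 and 5.72 for Myl1 and 4.36 and 6.15 for Mylpf in females and males. Of the C proteins that brace the thick filament, the fast Mybpc2 had ratios of 3.04 and 4.27 and the slow Mybpc1 of 1.69 and 3.43. In males the 9 ratios of the myosin group lay between 3.43 and 6.49, and in females between 1.69 and 7.68.

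In the thin filament, 5 of 9 genes were at least 2-fold higher in females and 9 of 9 in males, with median log2 ratios of 2.08 and 4.26. Acta1, skeletal alpha-actin, had log2 intensities of 4.65, 8.80, 12.73 and 15.60 in corn oil-treated females, corn oil-treated males, AAI-treated females and AAI-treated males. It was 271-fold higher in females and 111-fold higher in males. The former was the largest value among all genes tested in females, with lower bounds standing for dim probes. The ratios of Myh1 and Myh8 in females are such bounds, so either may be larger. Over the alternatives the log2 ratio of Acta1 in females ran from 5.91 to 8.23. The fast troponins were high with AAI in both sexes. Tnni2, the inhibitory subunit, had 7.83 and 13.76 in females and stood at 16.76 in AAI-treated males, 77.0-fold above corn oil-treated males. Tnnc2, the calcium-binding subunit, had 7.19, 10.37, 13.33 and 16.58. Tnnt3, the tropomyosin-binding subunit, had 9.06, 10.41, 13.30 and 16.00. For these 3 subunits the ratio in females lay between 4.25 and 6.14, and in males between 5.59 and 6.27.

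The slow troponins separated the sexes. Tnnt1 had log2 intensities of 9.76 and 10.04 in corn oil- and AAI-treated females and of 9.46 and 12.96 in males. Tnni1 had 9.77 and 9.87 in females and 9.48 and 11.22 in males. Tnnc1, the slow and cardiac troponin C, had 6.39 and 6.45 in females and 5.46 and 8.70 in males. Female ratios of 0.28, 0.10 and 0.06 are about as large as, or below, the 0.25 that is the median SD between probes of the same gene over 9128 genes in females, and the male ratios of 3.50, 1.74 and 3.24 are above the corresponding 0.24. Among the 38 genes probes differed more, with a median SD of 1.48 in females over 15 genes and 2.06 in males over 17, and 1.74 for Tnni1 lies below the latter. An SD between probes of the same arrays does not measure the spread between arrays or mice. Tpm2, beta-tropomyosin, was likewise below 2-fold in females, with 9.53 and 10.33, and high in males, with 8.39 and 12.65. Neb, the nebulin that lines the thin filament, had ratios of 2.08 and 3.58.

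At the Z-disc and among the elastic and intermediate filaments, 6 of 9 genes were at least 2-fold higher in females and 8 of 9 in males, with medians of 2.81 and 4.55. Tcap, telethonin, which caps titin in the Z-disc, had log2 intensities of 5.67, 9.22, 11.98 and 15.43 in corn oil-treated females, corn oil-treated males, AAI-treated females and AAI-treated males. It was 79.0-fold higher in females and 74.1-fold higher in males. Myot, myotilin, was not above background in corn oil-treated females, at 2.05, and had 6.20, 8.92 and 11.89 on the other arrays. The fast-fibre Z-disc genes Myoz1 and Actn3 had ratios of 3.05 and 2.81 in females and 5.36 and 4.79 in males, and Actn2, the alpha-actinin of all fibres, had 2.90 and 4.34. Des, the desmin that links Z-discs sideways, had ratios of 1.65 and 4.55. Ldb3, Xirp2 and Ttn were below 2-fold in females, with 0.32, 0.37 and 0.49. In males Ldb3 and Xirp2 had 1.68 and 2.81, and titin's brightest probe had 0.78.

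In calcium handling, 4 of 6 genes were at least 2-fold higher in females and 5 of 6 in males, with medians of 1.56 and 4.01. Trdn, the triadin that ties calsequestrin to the release channel, had log2 intensities of 2.06, 4.66, 8.41 and 11.10 in corn oil-treated females, corn oil-treated males, AAI-treated females and AAI-treated males. The first was not above background, so it was at least 16.8-fold higher in females, and it was 86.6-fold higher in males. Atp2a1, the fast-fibre calcium pump, had 5.62, 5.83, 8.58 and 10.81, which gives ratios of 2.95 and 4.98. Its levels in the control mice of the sexes were 0.21 apart, unlike those of most myosin genes. Cacna1s, the voltage sensor of the T tubule, had ratios of 1.96 and 4.21, and Pvalb, the parvalbumin that buffers calcium in fast fibres, of 1.17 and 3.80. Casq1, the calcium store of the sarcoplasmic reticulum, had 7.07 and 7.37 in females and 6.81 and 9.01 in males. Ryr1, the release channel, had 9.60 and 9.79 in females and 9.59 and 9.46 in males. Among the 38 it alone had a negative ratio in males.

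In the energy and oxygen supply, 3 of 5 genes were at least 2-fold higher in females and 5 of 5 in males. Mb, the oxygen-binding myoglobin, had log2 intensities of 5.83, 9.74, 12.49 and 15.61 in corn oil-treated females, corn oil-treated males, AAI-treated females and AAI-treated males, which is 101-fold in females and 58.7-fold in males. Ckm and Ckmt2, the cytosolic and mitochondrial creatine kinases of muscle, were 23.2-fold and at least 52.2-fold higher in females and 73.6-fold and 66.7-fold higher in males. The glycolytic genes had lower ratios. Pygm, muscle glycogen phosphorylase, had ratios of 0.89 and 3.16, and Eno3, muscle enolase, of 0.77 and 3.15.

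Probes of the same gene did not always agree, and the difference followed the transcript they were designed on. Of the probes designed on RefSeq messenger RNAs, 38 of 54 tested were at least 2-fold higher in females and 55 of 55 in males. Of those designed on other transcripts, such as Ensembl models or cDNA clones, 1 of 17 was higher in females and 2 of 17 in males. Of the 17 junction-crossing probes, 11 were higher in females and 14 in males. Ryr1 shows the split: its brightest probe is designed on a cDNA clone, and its RefSeq probe, printed above, had log2 intensities of 5.25 and 6.99 in females and 4.98 and 9.43 in males, ratios of 1.73 and 4.46. Titin was alike in part, with an Ensembl-based brightest probe and a RefSeq probe at 5.49 and 10.26 in males, a ratio of 4.77, and at least 3.46 in females. Other RefSeq probes of titin had lower ratios, of 2.80 and 1.35 in males and 1.99 and 0.69 in females. The brightest Trdn probe was an exception. It is not designed on a RefSeq messenger RNA and had at least 4.07 in females and 6.44 in males. With the brightest RefSeq probe in place of the brightest probe, a choice made after seeing the data, 29 genes were at least 2-fold higher in females and 38 in males.

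Fast and slow isoforms were compared by their ratios. All 13 fast genes were at least 2-fold higher in females, with a median log2 ratio of 4.36 and a range from 1.17 to 7.33, and in males, with 5.59 and a range from 3.80 to 6.49. Of the 5 slow genes, 2 were higher in females, with a median of 0.28 and a range from 0.06 to 2.34, and 5 in males, with a median of 3.43 and a range from 1.74 to 5.20. The fast median exceeded the slow by 4.08 in females and by 2.16 in males. In females this gap was 2.61 with the mean of a gene's probes in place of the brightest. Ratios also went with the corn oil level. The 19 genes with log2 intensities of at least 6.37 in corn oil-treated females had median ratios of 0.89 in females and 3.50 in males. The 19 below had 4.57 and 5.69. The brighter genes included all slow genes but Myh7, and the fast Tnnt3, Tnni2, Tnnc2, Mylpf and Pvalb. The part of the corn oil level in the gap was not tested.

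In females the partners of troponin C and troponin I were farther apart than those of any other pair whose difference is not a bound, and Myh1 and Myh7 differed by at least 4.99. In males the calcium pump pair, Atp2a1 and Atp2a2, was farthest apart, by 5.38, followed by troponin I with 4.53. The fast and slow ratios in females were 6.14 and 0.06 for troponin C, 5.93 and 0.10 for troponin I, and 4.25 and 0.28 for troponin T. In males they were 6.21 and 3.24, 6.27 and 1.74, and 5.59 and 3.50. The second probes, printed above, gave 6.69 and 6.45 for Tnnt3 and 0.78 and 2.92 for Tnni1 in females and males, and a second probe of Tnnt1 gave 0.55 and 3.59. In males the myosin heavy chains were close to each other, with 5.59 for Myh4, 6.49 for Myh1 and 5.61 for Myh2 against 5.20 for Myh7, and in females Myh7 stood at 2.34, below all 3.

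The slow genes outside the list did not all behave like the slow troponins. The slow light chains Myl2 and Myl3, which the ventricle shares, had ratios of 4.58 and 5.11 in females and 5.77 and 5.83 in males, close to 4.36 and 5.81 and to 6.15 and 5.72 of their fast partners Mylpf and Myl1. Myoz2, the slow partner of Myoz1, had 3.68 and 5.38. Calsequestrin ran the other way, with 0.30 and 2.20 for the fast Casq1 and 1.98 and 4.51 for the slow and cardiac Casq2. Atp2a2, the calcium pump of slow fibres and also of most other cells, had 0.27 and -0.41. Of the 9 further slow genes 4 were at least 2-fold higher in females and 5 in males.

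**Figure D2:**
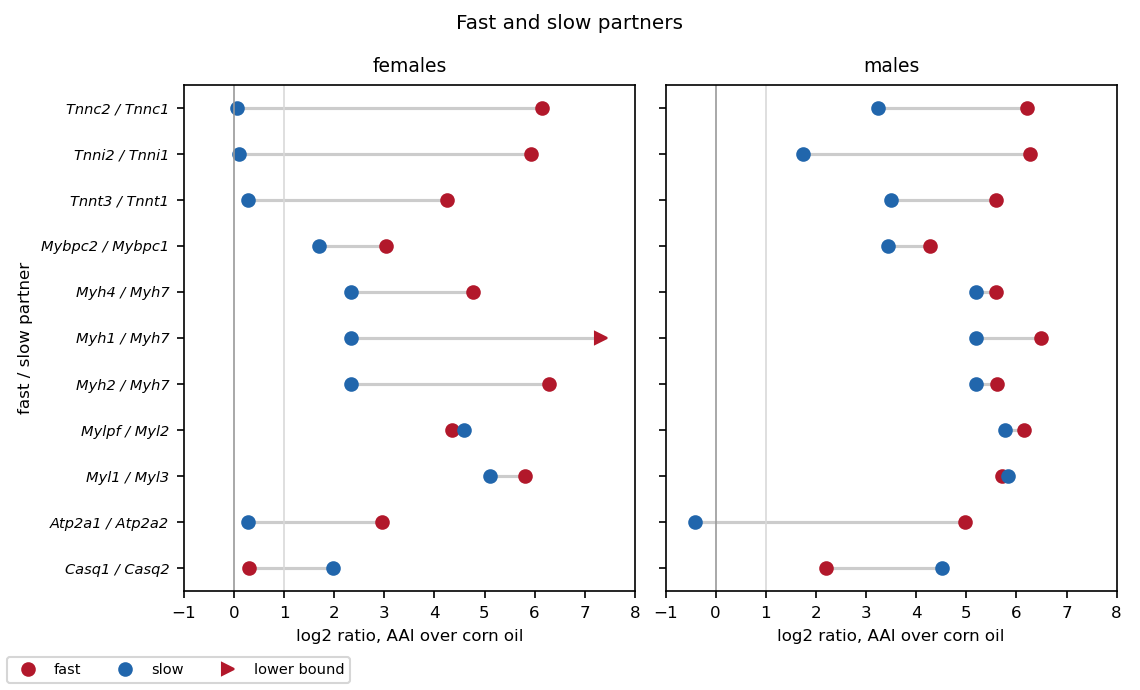
Log2 ratio of AAI over corn oil (horizontal axis) for the fast (red) and slow (blue) partner of 11 pairs, females left and males right; a triangle is a lower bound and the thin line at 1 is the 2-fold threshold. The partners of troponins C and I are wide apart in females, those of the calcium pump in males, the light chain partners lie together, and calsequestrin runs the other way.

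A log2 ratio depends on the corn oil level as well as on the amount gained, so the intensity gained with AAI was also taken on the linear scale, as AAI minus corn oil, and the gain in females was expressed as a percentage of the gain in males.

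Over the 36 genes that were at least 2-fold higher in males, the gain in females had a median of 12.6% of the gain in males, with quartiles of 8.88% and 15.1%. Acta1 stood at 13.7%, Myh8 at 13.7%, Cacna1s at 13.7%, Tnnt3 at 14.9%, Tnni2 at 12.5% and Des at 12.1%, although their log2 ratios in females ran from 1.65 to 8.08. The 27 genes that were at least 2-fold higher in both sexes had a median of 13.5%, and the 9 that were so in males alone had 7.66%. Of these 9, Ldb3 had 18.0%, Pygm 11.7%, Tpm2 8.96%, Eno3 8.65%, Casq1 7.66% and Xirp2 5.87%. By their brightest probes, the slow troponins had less. The 13 fast genes had a median of 13.0% and a range from 7.56% to 25.9%.

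By their brightest probes, the slow troponins stayed low on the linear scale as well. Tnnc1 gained 0.959% in females of what it gained in males, Tnnt1 2.57% and Tnni1 3.85%, all below the lowest fast gene, Pvalb. Gains were not computed for other probes. In females the second Tnni1 probe rose more than the brightest, with log2 intensities of 6.28 and 7.06, against 6.10 and 9.02 in males. The low gain of Tnni1 therefore rests on its brightest probe. The second Tnnt1 probe also rose more in females than the brightest, with 8.78 and 9.33, against 8.36 and 11.95 in males. By the brightest probes the female log2 ratios of the slow troponins were only 0.06 to 0.28, so their place below the fast genes is not established. Myh7 gained 7.24% and Mybpc1 19.5%, so the 5 slow genes had a median of 3.85% over a wide range. Their median was 7.92% without the trend correction across the array and 8.10% with normexp background correction, with Tnnc1 at 0.856% and 0.268%, Tnnt1 at 4.67% and 4.72% and Tnni1 at 7.92% and 8.10%, while the fast median stayed between 12.8% and 13.1% over the alternatives. Outside the list, the slow genes Myl2, Myl3 and Myoz2 gained 12.1%, 9.40% and 13.0%, which is in the range of the fast genes. Casq2, with 7.76%, was at the low end of that range. Myh7b, not well above background with corn oil in either sex, was below it with 5.96%.

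**Figure D3:**
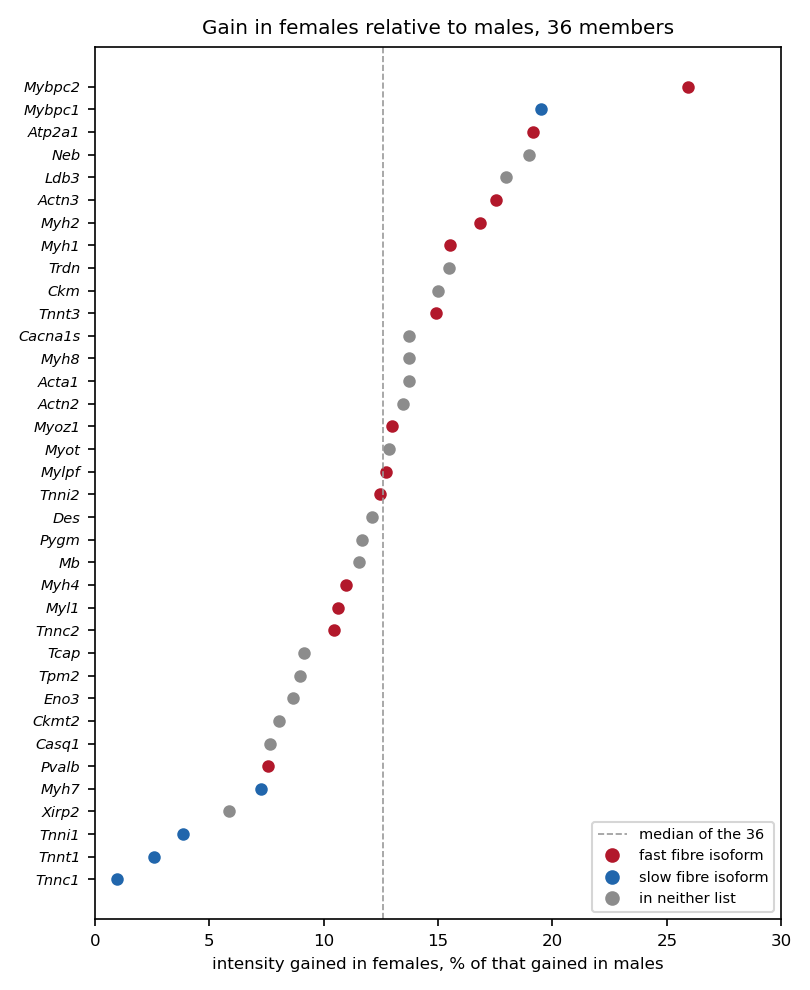
Intensity gained with AAI in females as a percentage of that gained in males (horizontal axis), 1 point per gene for the 36 genes at least 2-fold higher in males, colored by fibre type; the dashed line is their median, 12.6%. Each gene is shown by its brightest probe. The quartiles are 8.88% and 15.1%, and Tnnc1, Tnnt1 and Tnni1 are lowest.

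**Figure D4:**
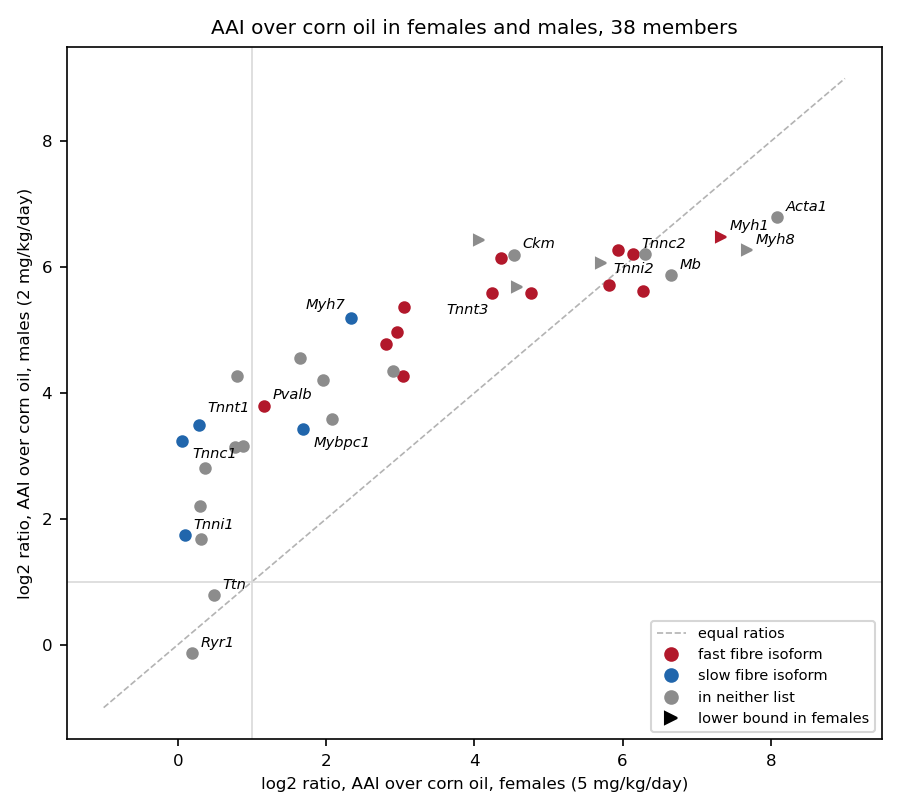
Log2 ratio of AAI over corn oil in males (vertical axis) against that in females (horizontal axis), 1 point per gene for the 38 genes; triangles are lower bounds in females, thin lines mark 2-fold and the dashed line marks equal ratios. Of the 38 genes 30 lie above the dashed line, the slow troponins near 0 in females, and Ryr1 and Ttn at the lower left by their brightest probes. Those above the line include the lower bounds of Ckmt2, Myot and Trdn, so for them a larger ratio in males is not established.

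The control mice also differed. With corn oil, 16 of the 38 genes were at least 2-fold lower in females than in males, where 3.83% of all genes were. Tpm2 alone was at least 2-fold higher in females, by 1.14 on the log2 scale, where 1.86% of all genes were. Myh8 was at least 19.5-fold lower in corn oil-treated females, Acta1 17.8-fold, Myh1 at least 11.7-fold, Tcap 11.7-fold, Myh2 9.49-fold and Tnnc2 9.07-fold. Of the genes for calcium handling 0 of 6 passed 2-fold in the controls. For Trdn this is a bound, at least 1.25-fold lower in females, since its 2.06 there was not above background. Among the fast isoforms 8 of 13 were lower in corn oil-treated females, with a median difference of -1.35, and among the slow isoforms 0 of 5, with a median of 0.29. On the linear scale the gap between the corn oil groups of males and females was small beside the gain with AAI, with a median of 1.24% of the rise from corn oil-treated females to AAI-treated males over the 27 genes that were higher in both sexes.

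Between the AAI groups, which differ in both sex and dose, all 13 fast and all 5 slow genes were at least 2-fold lower in females, where 3.25% of all genes were. The median difference was -2.79 for the fast and -2.25 for the slow genes. Over all 38 genes AAI-treated males were higher by a median of 2.69, and corn oil-treated females stood at a median of -0.55 against corn oil-treated males with bounds for dim probes, or -0.62 with all values as measured.

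Muscle genes outside the list were taken from lists of further sarcomere, calcium, energy and regulatory genes, of which 76 of 78 are on the array. At least 2-fold higher were 19 of 70 tested in females and 45 of 74 in males, with medians of 0.42 and 1.58. Sln, the sarcolipin that restrains the calcium pump, had log2 intensities of 5.46 and 11.50 in females and 7.64 and 14.02 in males. Cox6a2 and Cox8b, the muscle forms of cytochrome oxidase subunits, had ratios of 4.63 and 5.47 in females and 6.00 and 5.84 in males. Cav3 and Myom1, genes of the membrane and the M-band, had 2.27 and 2.07 in females and 4.43 and 4.55 in males. Regulators and genes of the neuromuscular junction were mostly within 2-fold, with 1 of 15 higher in females and 4 of 15 in males. Trim63, the muscle ubiquitin ligase, was at least 2.38 and 4.79 higher on the log2 scale, and Mef2c, Chrna1 and Musk had -0.01, -0.09 and -0.27 in females and 1.57, 1.66 and -1.59 in males.

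Genes that rose in both sexes were ranked by the lower of their ratios in females and males, over the 28872 genes above background on both AAI arrays. This rank does not ask for the order of the 4 arrays described above. The 38 genes held 16 of the first 25 places and 24 of the first 50, which follows from how they were chosen. Outside the muscle lists, Fabp3, a fatty acid-binding protein of muscle and heart, came first, with log2 intensities of 5.72 and 11.38 in females and 8.79 and 14.53 in males. Next were Cfd, the adipsin of fat cells, with ratios of 3.51 and 3.91, Thbs4 with at least 3.41 and 3.51, Apobec2, a muscle deaminase family member, with at least 3.26 and 5.54, and F13a1 with 2.92 and 4.09. Then came Smtnl1, Synpo2, Vgll2, H19, Hspb7, Mfap5, Pif1, Tbx1, Ankrd23 and Asb5, with ratios from 1.92 to 2.45 in females and from 2.70 to 6.23 in males, of which those of Asb5 in both sexes, Tbx1 in females and Vgll2 in males are lower bounds.

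Markers of brown fat, adrenal cortex and chromaffin cells were more often at least 2-fold higher in males than in females, while few heart and stellate cell markers were in either sex. Brown fat markers were at least 2-fold higher for 2 of 8 in females and 7 of 9 in males, and their summed intensity was 7409, 10784, 5960 and 74155 in corn oil- and AAI-treated females and corn oil- and AAI-treated males. Ucp1, which defines brown fat, was not above background in either female group and had log2 intensities of 4.98 and 12.89 in males. Of these markers Cox8b and Cox7a1 are also muscle genes and stand in both lists, so the sums include them. Cox8b had log2 intensities of 6.02 and 11.49 in corn oil- and AAI-treated females and 9.36 and 15.19 in males. Cox7a1 had 11.55 and 11.94 in females and 10.58 and 14.28 in males. White fat markers were higher for 3 of 8 in females and 4 of 8 in males, with summed intensities of 6477, 7946, 9683 and 77662 in the same order.

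Adrenal cortex markers were higher for 0 of 9 in females and 7 of 10 in males, with summed intensities of 29528, 28476, 37194 and 94638, and chromaffin cell markers for 0 of 9 and 5 of 10, with 17307, 12891, 12916 and 24451. Star, the steroidogenic carrier of cholesterol, had 5.74 and 5.31 in females and 8.53 and 13.01 in males, and Chgb, a chromaffin granule protein, was not above background in corn oil-treated females, at 4.16, and had 3.81 in AAI-treated females and 4.90 and 12.70 in males. Heart markers were higher for 1 of 14 in females and 2 of 13 in males, with summed intensities of 3132, 3246, 2813 and 3540. Those higher were Pln in females, with a log2 ratio of at least 1.08, and Tnnt2 and Myl7 in males, with 1.80 and 1.09. The cardiac Myh6 had ratios of 0.35 and -0.32 and Tnni3 of -0.33 and 0.03. Smooth muscle markers were higher for 0 of 9 and 3 of 9, with Acta2 at 0.90 and 2.57, and their sums were 11074, 13717, 9728 and 20975. Stellate cell and fibroblast markers were higher for 0 of 10 and 1 of 10. The summed intensity of the 38 genes was 8118, 83895, 14639 and 639273 on the same arrays, and that of the 12 liver markers was 2338019, 2511170, 2175622 and 2253475. The part of RNA from other tissues in the muscle gene values was not tested.

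**Figure D5:**
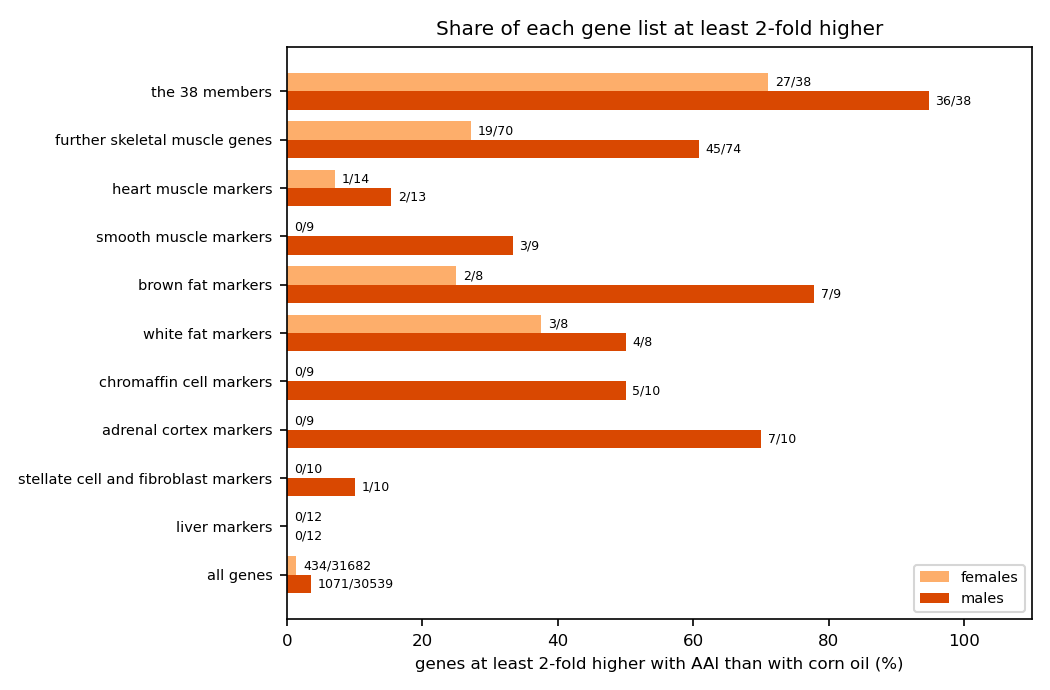
Share of each gene list that was at least 2-fold higher with AAI than with corn oil (horizontal axis, percent), females light and males dark, with the count and the number of genes tested beside each bar. The 38 genes have the largest share in both sexes, which follows from how they were chosen. In females the further muscle genes stand at 19 of 70, beside white fat markers at 3 of 8 and brown fat markers at 2 of 8. Adrenal and chromaffin markers are at 0 in females and at 7 of 10 and 5 of 10 in males. Liver markers are at 0 in both sexes.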

How the data were processed

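Liver RNA pooled from 5 mice per group was hybridized to 4 single-channel Agilent arrays on 1 slide, 1 array per group, with groups taken from the labels. The authors read the scans in Feature Extraction 10.5.1.1. They deposited linear intensity values, background-subtracted and corrected for trends across the array, a correction that left most spots of the AAI-treated female array within 1% of their uncorrected value, on a design annotated to mm9. They also deposited a table with a quantile-normalized intensity, used here as an alternative. In 2 of the files 70 gene names read as dates, so names were taken by probe from the other 2.

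From the deposited intensity, log2 values were computed after leaving out control and outlier spots, spots of a probe were averaged, and the 4 arrays were quantile normalized over 56495 probes (Python 3.11.15, numpy 2.4.6, pandas 2.3.3). The brightest probe by its mean over the arrays stood for a gene. The 2-fold threshold (a log2 ratio of 1) was applied to genes whose probe exceeded background clearly on 1 or both arrays of a comparison. Where it did so on 1 alone, the ratio is a lower bound, computed against the higher of the probe's own value and the lowest clearly detected value of the dim array. A junction-crossing probe is one whose position spans more than 100 bases.

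There is 1 array per group, so no test across samples was possible and the number of arrays limits precision. The 38 genes, the gene lists and the isoform pairs were chosen with earlier results of these data known. The text names all 38 genes, both genes of each pair, at most 4 genes of each other list by the largest ratio in either sex, and 15 further genes by the lower of their ratios. Myh6, Tnni3 and the second probes were named after their values were seen. Alternatives were scaling to the 75th percentile, normexp background correction with an offset of 50 (limma 3.58.1 in R 4.3.3), the background-subtracted signal, the authors' normalized values, the mean of a gene's probes, no filter on dim probes, leaving out spots replaced by the background value, a 3-fold threshold and, chosen after seeing the data, the brightest RefSeq probe.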

Additional observations from a re-analysis of the deposited data

Results flagged for a closer look

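Ryr1 was the only one of the 38 genes with opposite directions in the sexes, with a log2 ratio of AAI over corn oil of 0.20 in females and -0.13 in males by its brightest probe. Both values are below the median SD between probes of a gene, and with 1 array per group the difference between the sexes was not tested. Its RefSeq probe gave 1.73 and 4.46.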

How the results depend on the processing

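No paired analysis was possible because each group has 1 array. With normexp background correction, the median log2 ratio of the 38 genes was 1.81 in females and 3.97 in males, their median difference between corn oil-treated females and males was -0.28, the gap between fast and slow isoforms in females was 3.24, 12 further muscle genes were at least 2-fold higher in females, and the median of the further muscle genes in males was 0.94. With the mean of a gene's probes, the medians of the 38 genes were 2.20 and 3.71 and the gap in females was 2.61. The counts of the 38 genes stayed between 26 and 29 in females and between 36 and 38 in males over all alternatives, and none was 2-fold lower in any. No called ratio changed its direction. Below the threshold, Ryr1 in males became 1.57 with the mean of its probes, and the differences of Mybpc1 and Neb between the corn oil groups became 0.40 and 0.02. Dim probes give lower bounds only, and the single array per group leaves the spread between mice unknown.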
